A study of Homo sapiens with 16 samples.

Results

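The short arm of chromosome 8 (8p) carries the genes described here, 58 neighbours running from FBXO25 near the tip to WRN in the direction of the centromere. A list of these neighbours was written with earlier results of A7 and G10 known, so the levels of its members in those cells are a description and carry no p values. Of the 58 listed genes 56 had a transcript cluster with 1 gene symbol on the arrays, out of 18417 genes and 33297 transcript clusters in all. MCPH1 and FDFT1 had no such cluster and were not analysed here. For CLN8, PSD3, BMP1 and SLC25A37, which had 2 clusters each, the cluster with the higher mean over the 16 arrays was used. Gene positions were taken as an order only, from the RefSeq annotation of GRCh38.p14, and no position or sequence is given.

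A375 is an established line from an amelanotic (unpigmented) human melanoma. Its RNA was hybridized to 4 Affymetrix arrays (Human Gene 1.0 ST), and so was the RNA of each of 3 lines derived from it. PCDNA3 cells carry the empty pcDNA3 vector, while A7 and G10 carry pcDNA3 with human catalase cDNA. Both A7 and G10 are single clones obtained by clonal dilution, so a feature of 1 clone cannot be told apart from an effect of the transfected gene. The 3 transfected lines were selected with 1500 µg/ml geneticin and kept in 700 µg/ml, whereas the A375 cells received none. The average of A375 and PCDNA3 cells served as control, and the comparisons of A7 and of G10 share these 8 arrays.

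The members do different jobs in the cell and are grouped by position, not by function. MSRA reduces oxidized methionine in proteins, GSR regenerates reduced glutathione from its disulfide with NADPH, and EPHX2 hydrolyses lipid epoxides. Among the other genes are TRAIL death receptors (TNFRSF10A, TNFRSF10B), genes described as tumor suppressors (DLC1, TUSC3, MTUS1, LZTS1), lysosomal enzymes (CTSB, ASAH1) and proteins of chromosome maintenance (WRN, ESCO2, TNKS, NEIL2). The 8p arm is known for frequent loss in epithelial cancers. The question was whether these neighbours moved together in A7 and in G10. The arrays measured RNA, and no DNA measurement was analysed here.

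All values are log2 intensities, on which a difference of 1 is a doubling. The level of unexpressed genes was read from 360 clusters of olfactory receptors, genes of the nasal epithelium, whose median was 3.47 and whose 95th percentile was 5.18. All 56 genes exceeded this percentile in the mean of at least 1 group. A gene was called when its adjusted p in limma, over all clusters of a comparison, was under 0.05. The labels call the arrays biological replicates without naming separate cultures, so these p values measure the spread between the arrays, which may be partly technical.

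The targeted gene did not separate the clones from the control in the same way. The catalase gene CAT read 8.73 ± 0.20 in A375 (mean ± SD, n = 4), 8.56 ± 0.10 in PCDNA3, 9.02 ± 0.08 in A7 and 8.27 ± 0.38 in G10. The difference was 0.37 in A7 vs control (limma adjusted p 0.124) and -0.38 in G10 vs control (limma adjusted p 0.0526). Between the clones CAT differed by -0.75 in G10 vs A7 (limma adjusted p 0.00221). The arrays labelled as catalase-transfected clone G10 were thus not higher in CAT than the control arrays, and group names follow the labels throughout. Of the melanocyte lineage markers 10 of 11 were measured, and 9 of them lay above the olfactory receptor level in every group, the exception being TYR in A375. Of the markers of other cell types, 2 of 4 for keratinocytes, 3 of 5 for fibroblasts, 2 of 4 for leukocytes and 1 of 5 for endothelium lay above that level in every group (KRT14, KRT10, PDGFRA, PDGFRB, LUM, CD14, CD68 and KDR), and THY1 in 3 groups. PTPRC, CD3E, PECAM1, CDH5, DCN, KRT5 and DSG3 lay below it in every group. In such bulk RNA, fewer cells that express a gene and less RNA per cell cannot be told apart.

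Within each clone the arrays fell into pairs over all clusters, and this touches the results for G10. G10 arrays 1 and 2 correlated with r = 0.9941 and arrays 3 and 4 with r = 0.9918, against 0.9844 to 0.9871 between the pairs. In A7 the values were 0.9940 and 0.9949 within and 0.9875 to 0.9926 between the pairs. The labels do not explain the pairs. Counts without a pair are given beside several results, and the values of both G10 pairs for the members in which they differed by more than 0.5.

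In A7 the 8p genes were higher than in control almost throughout. Of the 56 members 53 had a positive difference, with a median of 0.39 (1.31-fold) and quartiles of 0.30 and 0.53, while the median over all 33297 clusters was -0.02, with quartiles of -0.12 and 0.10. By the adjusted p 35 members were called higher and 0 lower, and at an unadjusted p under 0.05 the limma counts were 45 and 0. Over all clusters 3.46% were called higher and 2.23% lower in this comparison (5.69% in either direction), from which nothing is read, since the list was drawn with these values known. For 30 members every A7 array lay above every control array, which was so for 3.5% of all clusters, and for 0 members every A7 array lay below them (2.47% of all clusters). The number of calls varied with the A7 arrays in the fit. It was 18 members higher without A7 replicate 1, 23 without replicate 2, 10 without replicates 1 and 2, and 22 without replicates 3 and 4. The share of all clusters called in these smaller fits was not counted, so nothing is read from the changes. The median stayed between 0.38 and 0.42 when single arrays were left out.

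In G10 the same genes were mixed. The median was 0.22 (1.16-fold) with quartiles of 0.04 and 0.46, and 43 of the 56 differences were positive and 13 negative. The adjusted p called 22 members higher and 3 lower (DLC1, MTUS1 and EPHX2), against 9.92% and 7.9% of all clusters, and again nothing is read from the comparison with the background. Every G10 array lay above every control array for 15 members and below for 3, against 5.96% and 4.35% of all clusters. Without G10 replicate 4 the members called lower were 6, without replicates 1 and 2 only 1, and without replicates 3 and 4 again 6. For these fits, too, the share of all clusters called was not counted.

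**Figure D1:**
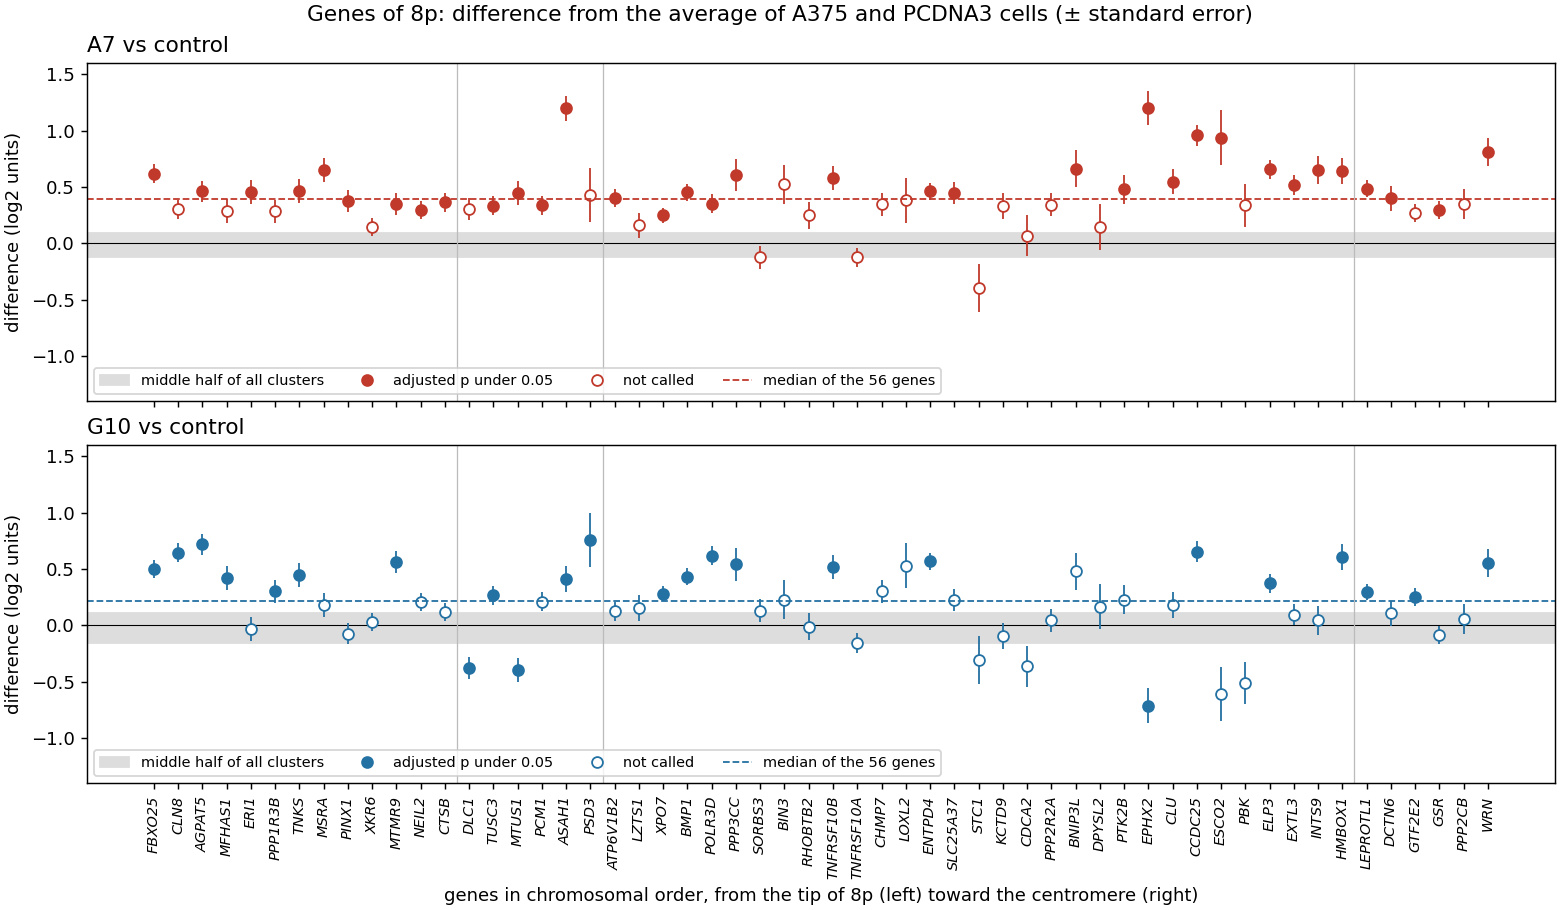
Difference of each of the 56 genes from the average of A375 and PCDNA3 cells, in log2 units with its standard error, for A7 (top) and G10 (bottom), in chromosomal order from the tip of 8p at the left. Filled points are called at an adjusted p under 0.05, the dashed line is the median of the 56 genes, the grey band spans the quartiles of all clusters and thin vertical lines part the 4 stretches of the arm. Nearly all A7 points lie above the grey band, with a median of 0.39, while the G10 points scatter on both sides of zero around a median of 0.22.

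The block level of an array, taken as the median over the members of the level minus its control mean, summarized this per array. It was 0.44, 0.46, 0.40 and 0.36 on the A7 arrays and 0.15, 0.17, 0.29 and 0.21 on the G10 arrays. On the control arrays, whose own mean was subtracted, it ran from -0.03 to 0.05. Neither clone overlapped the controls, and the A7 arrays all lay above the G10 arrays. Nothing is read from this separation, since the list was drawn with these differences known. Over all clusters the mean of the same measure was -0.01 in A7 and -0.03 in G10. From 53 to 55 of the 56 members lay above their control mean on each A7 array, from 36 to 46 on each G10 array, and from 21 to 37 on each control array.

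Member by member, 42 genes were above control in both clones, 11 were above in A7 and below in G10, STC1 and TNFRSF10A were below in both, and SORBS3 was below in A7 and above in G10. The calls divided likewise: 17 members were called higher in both clones, 16 in A7 without a call in G10, 5 in G10 without a call in A7, and 2, EPHX2 and MTUS1, higher in A7 and lower in G10. Because the clones share their control arrays, these counts are not independent of each other. The share of all clusters with each of these patterns was not counted, so nothing is read from the numbers.

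**Figure D2:**
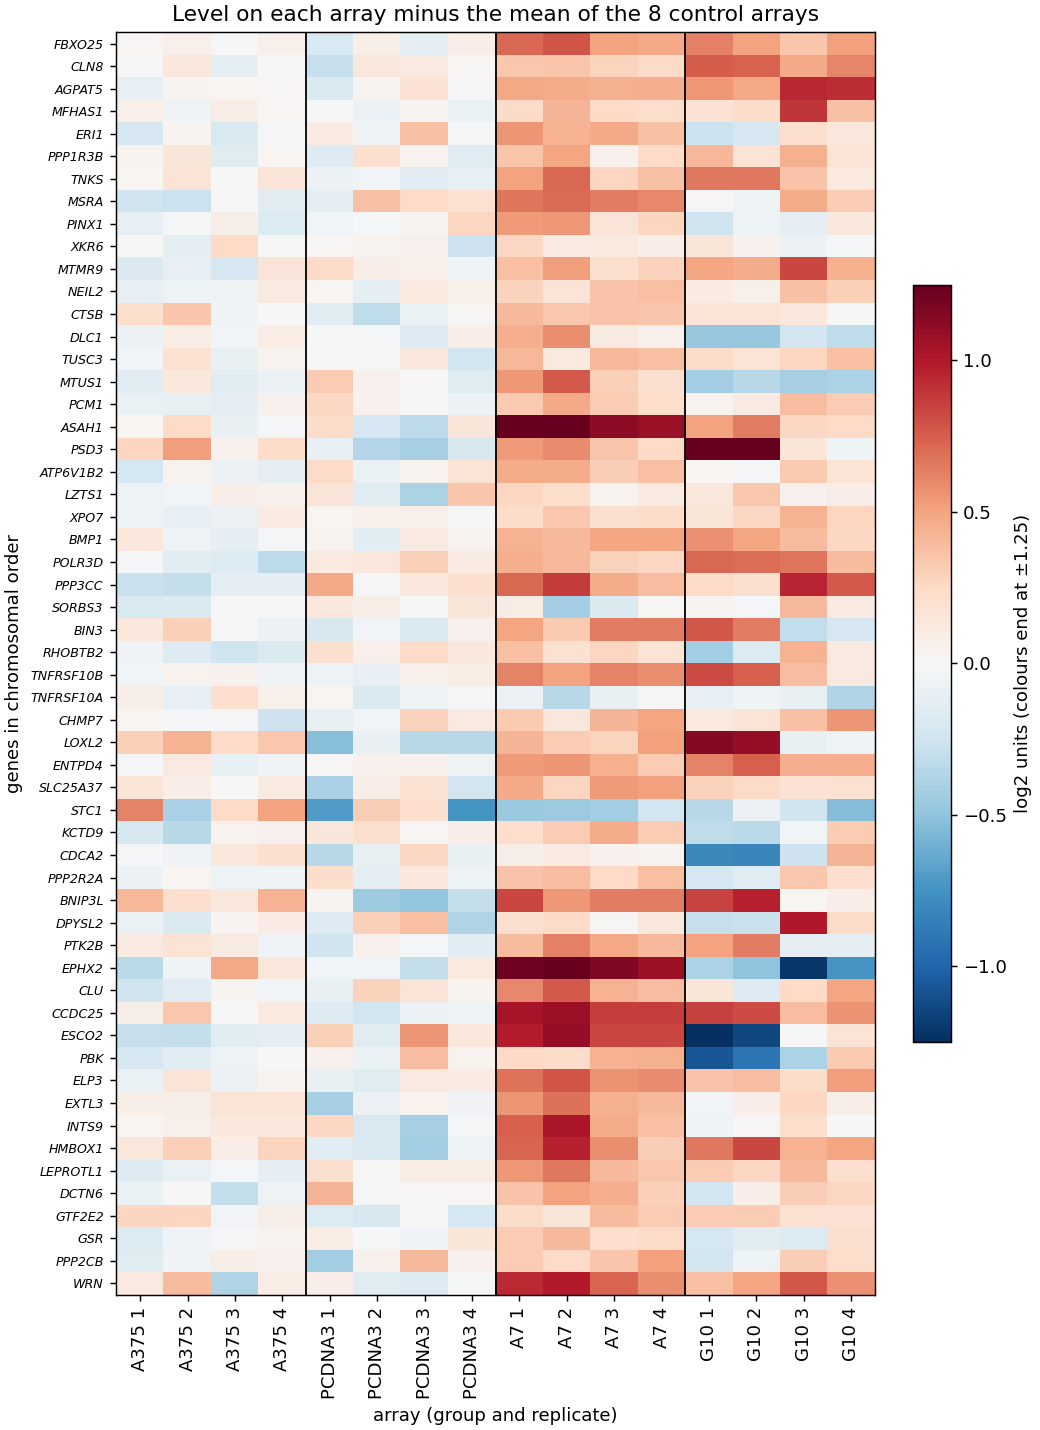
Level of each of the 56 genes (rows, in chromosomal order) on each of the 16 arrays (columns) minus the mean of the 8 control arrays, in log2 units, larger differences taking the end colours of the scale. The A7 columns are red for nearly all genes on all 4 arrays, while the G10 columns mix red and blue, and genes such as PSD3, LOXL2, ESCO2 and PBK differ between G10 arrays 1 and 2 and arrays 3 and 4.

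The antioxidant genes were all higher in A7. In G10 only EPHX2 was called, lower and with values below the olfactory receptor level, while MSRA and GSR overlapped the controls. MSRA, the methionine sulfoxide reductase, read 6.77, 6.75, 7.01 and 6.87 on the A375 arrays, 6.90, 7.38, 7.25 and 7.20 on the PCDNA3 arrays, 7.69, 7.73, 7.65 and 7.62 in A7 and 7.03, 6.95, 7.48 and 7.34 in G10. Every A7 array lay above every other array, whereas the G10 arrays overlapped the controls, arrays 1 and 2 lying near A375 and arrays 3 and 4 near or above the highest PCDNA3 array. The MSRA difference was 0.65 (SE 0.11) in A7 vs control, called, and 0.18 (SE 0.11) in G10 vs control, not called. From the G10 pairs it was -0.02 with arrays 1 and 2 and 0.39 with arrays 3 and 4.

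EPHX2, the soluble epoxide hydrolase, read 4.35, 4.63, 5.16 and 4.82 in A375, 4.65, 4.65, 4.38 and 4.80 in PCDNA3, 5.89, 6.04, 5.84 and 5.75 in A7 and 4.28, 4.18, 3.47 and 3.94 in G10. All A7 arrays lay above the olfactory receptor level of 5.18 and all others below it, so EPHX2 had a measured level in A7 alone. In A7 vs control it was at least 0.71 higher, with a measured difference of 1.20 (SE 0.15), and in G10 vs A7 at least 0.71 lower, with a measured difference of -1.91 (SE 0.18). For G10 vs control no size is given, because both sides lay below that level, although the values of all 4 G10 arrays were lower than those of all 8 control arrays and the cluster was called lower.

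GSR, the glutathione reductase, had the smallest A7 difference of the 3. Its values were 10.92, 11.04, 11.06 and 11.13 in A375, 11.18, 11.09, 11.05 and 11.25 in PCDNA3, 11.41, 11.50, 11.31 and 11.33 in A7 and 10.87, 10.95, 10.92 and 11.29 in G10. The A7 arrays lay just above all control arrays, and the G10 arrays overlapped the controls. The difference was 0.30 (SE 0.08) in A7 vs control and -0.09 (SE 0.08) in G10 vs control. GSR was called in A7 under 13 of 33 settings at the adjusted p limit of 0.05, the main fit included. Its call thus depended on the setting, although the difference stayed between 0.23 and 0.36. MSRA and EPHX2 were called higher in A7 under all 33 of these.

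**Figure D3:**
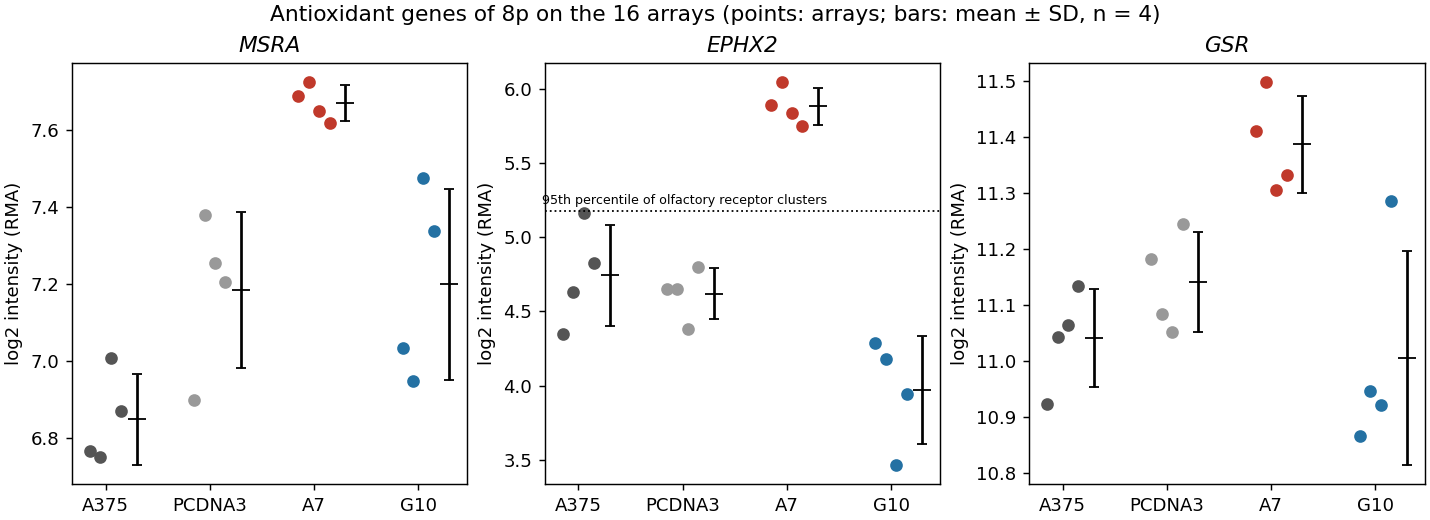
Log2 intensity of MSRA, EPHX2 and GSR on each array (points) with the mean and SD of the 4 arrays of a group (bars), each panel with its own axis. The A7 points lie above all other points in each panel, and for EPHX2 the A7 arrays are the only ones above the dotted line at 5.18, the 95th percentile of the olfactory receptor clusters.

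Other genes of these redox routes, which lie on other chromosomes, gave a comparison for the antioxidant members. They too were chosen with earlier results of these data known, so their adjusted p values are a description. The 17 genes cover glutathione synthesis, glutathione peroxidases, glutaredoxins, thioredoxins and their reductases, methionine sulfoxide reductases B and other epoxide hydrolases. Of these 17, 2 were called higher and 1 lower in A7, against 3.46% and 2.23% of all clusters. In G10 0 were called higher and 3 lower, against 9.92% and 7.9%. Nothing is read from these few calls. EPHX3, another of the 17, lay below the olfactory receptor level in every group. MSRB3, which reduces the other stereoisomer of methionine sulfoxide, was higher in A7 by 0.51 (SE 0.09, limma adjusted p 0.00244), and the epoxide hydrolase gene EPHX4 by 0.70 (SE 0.17, limma adjusted p 0.0196). GCLM, the modifier subunit of the enzyme that starts glutathione synthesis, differed by -0.51 in A7 (limma adjusted p 0.0411) and -0.43 in G10 (limma adjusted p 0.0422), while the control lines themselves differed by 0.61, PCDNA3 reading higher (limma adjusted p 0.116). In G10 the xenobiotic epoxide hydrolase EPHX1 differed by -0.64 (limma adjusted p 0.00157) and the mitochondrial glutaredoxin GLRX2 by -0.48 (limma adjusted p 0.00961). TXNRD1, which reduces thioredoxin, was not called in A7 at -0.19 (limma adjusted p 0.34), and GPX1 was not called at 0.15 (limma adjusted p 0.81).

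Of the lysosome and lipid genes all 6 were above control in A7 and in G10, with medians of 0.43 and 0.49. In A7 5 were called, CLN8 being the exception, and in G10 4, the exceptions being CTSB and the proton pump subunit ATP6V1B2. Over all clusters 3.46% were called higher in A7 and 9.92% in G10. Nothing is read from the calls of this or the following groups of members by role, which were drawn with the values known. ASAH1, the acid ceramidase of lysosomes, read 10.48, 10.70, 10.36 and 10.44 in A375, 10.68, 10.24, 10.13 and 10.61 in PCDNA3, 11.73, 11.77, 11.57 and 11.54 in A7 and 10.95, 11.11, 10.71 and 10.70 in G10. The A7 arrays stood clear of all others, and the lowest G10 array lay only just above the highest control array. The difference was 1.20 (SE 0.11) in A7 and 0.41 (SE 0.11) in G10, a gap of -0.78 in G10 vs A7.

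AGPAT5, which acylates lysophosphatidic acid in phospholipid synthesis, was higher in both clones without overlap with the controls. Its A7 arrays read 9.51, 9.48, 9.46 and 9.48 and its G10 arrays 9.56, 9.50, 9.96 and 9.94, against 8.84 to 9.20 on the control arrays, which gave 0.46 (SE 0.09) in A7 and 0.72 (SE 0.09) in G10. CLN8, an endoplasmic reticulum protein mutated in a neuronal storage disease, was the only member called higher in G10 vs A7, by 0.34 (SE 0.10). It read 7.75, 7.73, 7.47 and 7.60 in G10 and 7.33, 7.34, 7.27 and 7.23 in A7, so the clones did not overlap, and both lay above the control arrays, which ended at 7.14. ENTPD4, a nucleotidase of the Golgi, was higher by 0.46 in A7 and 0.57 in G10, and CTSB, cathepsin B, by 0.36 in A7, whereas its 0.12 in G10 was not called.

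Of the 7 genes of genome maintenance and mitosis all were above control in A7, with a median of 0.34, and 4 in G10. The genes called higher were 5 in A7 and 2 in G10, against 3.46% and 9.92% of all clusters. WRN, the helicase lost in Werner syndrome, was higher in both, by 0.81 (SE 0.13) in A7 and 0.55 (SE 0.13) in G10. TNKS, the poly-ADP-ribosylating tankyrase, was higher by 0.46 and 0.45, and the DNA glycosylase NEIL2 by 0.30 in A7 and 0.21 in G10, the last not called.

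The mitotic members ESCO2, PBK and CDCA2 differed between the pairs of G10 arrays. ESCO2, which acetylates cohesin so that sister chromatids stay joined, read 10.20, 10.32, 10.05 and 10.06 in A7, 7.75, 8.08, 9.22 and 9.39 in G10, and 8.92 to 9.77 on the control arrays. G10 arrays 1 and 2 lay below all controls and arrays 3 and 4 among them, so the ESCO2 difference was -1.30 with the first pair and 0.09 with the second, and -0.61 (SE 0.24) over all 4, which was not called. In A7 ESCO2 was higher by 0.94 (SE 0.24) with no overlap, and it was called under 22 of 33 settings.

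PBK, a kinase active in mitosis, read 9.48, 9.65, 10.15 and 10.88 in G10 against 10.34 to 10.94 on the control arrays. The first 3 G10 arrays lay below all controls and the last among them. CDCA2, which targets protein phosphatase 1 to chromatin at the end of mitosis, read 8.32, 8.31, 8.88 and 9.55 in G10 against 8.78 to 9.39 in the controls. Its first G10 pair lay below all controls and array 4 above them, and neither gene was called in G10 over the 4 arrays.

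The growth-restraining and adhesion-signalling genes held 2 of the 3 members that were called lower in G10, DLC1 and MTUS1. In A7 all 10 lay above control, with a median of 0.32 and 4 called higher, against 3.46% of all clusters. In G10 6 lay above and 4 below, 2 called higher and 2 lower, against 9.92% and 7.9% of all clusters. DLC1 read 8.04, 8.17, 7.70 and 7.65 in A7, 7.11, 7.11, 7.34 and 7.26 in G10, and 7.43 to 7.68 on the control arrays. MTUS1, a microtubule-associated protein, read 9.14, 9.37, 8.90 and 8.80 in A7, 8.16, 8.25, 8.18 and 8.21 in G10, and 8.45 to 8.92 in the controls. For both genes all G10 arrays lay below all controls, and in A7 arrays 1 and 2 stood above them while arrays 3 and 4 lay at or within the top of their range.

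DLC1 differed by -0.38 (SE 0.10) and MTUS1 by -0.40 (SE 0.11) in G10 vs control, against 0.30 and 0.45 in A7. The tumor suppressor TUSC3, a subunit of the complex that attaches N-glycans, was higher in both clones, by 0.33 and 0.27. PINX1, which binds and inhibits telomerase, was higher by 0.38 in A7 and differed by -0.07 in G10. BIN3, a membrane-curving protein, had 0.52 in A7 without a call, and in G10 it read 10.83, 10.69, 9.74 and 9.84, so that its first pair lay above all control arrays and its second at or below the lowest of them (9.85 to 10.34). MFHAS1 was higher by 0.42 in G10, where array 3 (7.75) stood above the others (7.04, 7.09 and 7.22).

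Among the death receptors and stress-survival genes the members went separate ways. TNFRSF10B, a receptor for TRAIL, was higher in both clones without overlap, by 0.58 (SE 0.11) in A7 and 0.51 (SE 0.11) in G10, where arrays 1 and 2 gave 0.78 and arrays 3 and 4 gave 0.25. Its neighbour TNFRSF10A, another TRAIL receptor, lay just above the olfactory receptor level and differed by -0.12 and -0.16, neither called. CLU, the extracellular chaperone clusterin, was called higher in A7, by 0.55, and not in G10, at 0.18. STC1, a secreted glycoprotein, had the lowest difference in A7, -0.40 (SE 0.21), but the control arrays themselves ran from 5.68 to 7.04, so the A7 values of 5.96, 5.97, 5.99 and 6.18 lay within their range. BNIP3L, a mitophagy receptor, was higher in A7 by 0.66 (SE 0.16), but that difference was 0.36, not called, against A375 alone and 0.96 against PCDNA3 alone. In G10 it read 10.61, 10.74, 9.79 and 9.85, above all controls on arrays 1 and 2 and within their range on arrays 3 and 4.

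In transcription and RNA processing all 6 members were above control in A7, with a median of 0.55, and 5 of 6 in G10. Of these members 5 were called higher in A7 and 4 in G10, against 3.46% and 9.92% of all clusters. ELP3, the catalytic subunit of the Elongator complex, was higher by 0.66 (SE 0.08) in A7 and 0.37 (SE 0.08) in G10. POLR3D, a subunit of RNA polymerase III, was higher by 0.35 in A7, or 0.19 and not called against PCDNA3 alone, and by 0.62 in G10. HMBOX1, a homeobox protein of telomeres, was higher by 0.64 and 0.61. INTS9, of the Integrator complex, and the histone mRNA exonuclease ERI1 were higher in A7, by 0.65 and 0.46, and lay near control in G10, at 0.04 and -0.03.

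All 5 phosphatase genes and 10 of 10 genes of trafficking, transport and protein turnover were above control in A7, with medians of 0.35 and 0.42 and 2 and 6 called. In G10 the counts were 5 of 5 and 9 of 10, with 3 and 5 called. Of all clusters 3.46% were called higher in A7 and 9.92% in G10. PPP3CC, a catalytic subunit of calcineurin, was higher by 0.61 in A7, or 0.41 and not called against PCDNA3 alone. In G10 it was higher by 0.54, with 0.22 from arrays 1 and 2 and 0.86 from arrays 3 and 4. The inactive phosphatase MTMR9 was higher by 0.35 and 0.56. Against PCDNA3 alone MTMR9, MTUS1, ESCO2 and GSR also lost the call in A7, at 0.26, 0.40, 0.73 and 0.25. CCDC25 was higher in both clones without overlap. It read 10.09, 10.13, 9.92 and 9.92 in A7 and 9.91, 9.87, 9.44 and 9.61 in G10, against 8.81 to 9.39 in the controls, which gave 0.96 (SE 0.10) and 0.65 (SE 0.10).

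PSD3, which activates a small GTPase of endosomes, had the largest difference in G10, 0.76 (SE 0.24), and it rested on 1 pair of arrays. It read 9.54, 9.64, 8.27 and 8.06 in G10 against 7.71 to 8.64 in the controls, so the difference was 1.47 with arrays 1 and 2 and 0.05 with arrays 3 and 4. Its other cluster gave 0.50 in G10, not called. Of the 4 matrix-acting and junction genes 3 were above control in A7 and 4 in G10. LOXL2, a lysyl oxidase of the matrix, behaved like PSD3, with 11.37, 11.32, 10.12 and 10.18 in G10 against 9.69 to 10.65 in the controls, while BMP1, the procollagen C-proteinase, was higher by 0.45 in A7 and 0.43 in G10. The other BMP1 cluster, with a mean of 4.96 that lay below the olfactory receptor level, differed by -0.05 in A7. EXTL3, which acts in heparan sulfate synthesis, was higher by 0.52 in A7 and 0.10 in G10, the last not called.

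For 13 of the 56 genes the means of the G10 pairs differed by more than 0.5, which was so for 0 of 56 in A7. Arrays 1 and 2 were higher for PSD3, LOXL2, BIN3, BNIP3L, PTK2B, TNFRSF10B and EPHX2, and arrays 3 and 4 for ESCO2, PBK, CDCA2, DPYSL2, PPP3CC and RHOBTB2. For EPHX2 all G10 values lay below the olfactory receptor level, so its gap is one between background readings. Of those not yet given by pair, PTK2B, an adhesion kinase, differed from control by 0.57 with arrays 1 and 2 and -0.12 with arrays 3 and 4, DPYSL2, a microtubule-binding protein, by -0.28 and 0.61, and RHOBTB2 by -0.30 and 0.28. The pairs of G10 gave LOXL2 1.12 and -0.07, BIN3 0.71 and -0.26, BNIP3L 0.91 and 0.05, PBK -0.99 and -0.04, and CDCA2 -0.81 and 0.08. The median over the 56 members was 0.19 with the first G10 pair and 0.25 with the second, and 32 members were above control with both and 6 below with both. In A7 the medians of the pairs were 0.43 and 0.38, and the same 53 members were above control with both.

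Set against each other, G10 was below A7 for 43 of 56 members, with a median of -0.19 over the members and -0.01 over all clusters. The adjusted p called 1 member higher in G10 and 13 lower, against 7.83% and 7.38% of all clusters. Besides EPHX2 (-1.91), the lower ones were led by ESCO2 (-1.55), MTUS1 (-0.85), PBK (-0.85), ASAH1 (-0.78), DLC1 (-0.68) and INTS9 (-0.61). MSRA (-0.47) and GSR (-0.38) were among them, and all G10 arrays lay below all A7 arrays for both. Such complete separation was seen for 1 member with G10 above A7 and 14 with G10 below, against 8.89% and 8.48% of all clusters. The count of lower members was 6 without A7 replicates 1 and 2, where MSRA and GSR lost the call. Without G10 replicates 1 and 2 MSRA and GSR also lost it, at -0.26 and -0.28. How many of all clusters lost a call in these fits was not counted.

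From the tip, the stretches FBXO25 to CTSB, DLC1 to PSD3, ATP6V1B2 to HMBOX1 and LEPROTL1 to WRN, with 13, 6, 31 and 6 members, had medians of 0.36, 0.38, 0.45 and 0.38 in A7. The corresponding medians in G10 were 0.30, 0.24, 0.18 and 0.18. The 3 members below control in A7, SORBS3, TNFRSF10A and STC1, all lay in the stretch ATP6V1B2 to HMBOX1. Listed neighbours such as PPP3CC, TNFRSF10B and SLC25A37 were higher. SORBS3, TNFRSF10A and STC1 were dim, with means over the 16 arrays of 6.74, 5.38 and 6.25. At a mean of at least 7, a limit set after the values were seen, all 47 members were above control in A7. Of the 9 dimmer members 6 were above.

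Genes of the same stretch of 8p that are not on the list were counted for comparison, chosen by position alone. Of 108 such genes between FBXO25 and WRN, 68 lay above the olfactory receptor level in at least 1 group mean. A gene can pass this limit only through the clone in which it is high. Over all 108 genes the median was 0.07 in A7, with 72 above control, and -0.07 in G10, with 40 above control. In A7 52 of the 68 were above control, with a median of 0.19. Of the 68, 19 were called higher and 1 lower in A7, against 4.89% and 3.1% of all clusters above that level. In G10 28 of 68 were above control, with a median of -0.05, 11 called higher and 8 lower. These calls were 16.2% and 11.8% of the 68, close to the 14.8% and 11.5% of all clusters above that level. By their medians the listed genes thus lay above their unlisted neighbours in both clones, and the list had been drawn with these differences known. Among the 27 unlisted genes with a mean of at least 7, a limit set after the values were seen, 24 were above control in A7, with a median of 0.31, and 13 in G10, with a median of -0.02. The listed genes of that brightness had medians of 0.40 (n = 47) and 0.23.

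The higher level in A7 went on past WRN and ended on the other side of HGSNAT, a gene near the centromere. Of the 47 genes above the olfactory receptor level after WRN and up to HGSNAT, 44 were above control in A7, with a median of 0.41. Of these 47, 28 were called higher and 0 lower, against 4.89% and 3.1% of all clusters above that level. Of the 305 genes above that level after HGSNAT, which take up the long arm, 35 were above control, with a median of -0.30. Among these 305, 7 were called higher and 106 lower. Without the limit on level 48 of 67 and 68 of 405 genes were above control in A7, with medians of 0.24 and -0.19. Above that level the G10 medians of these stretches were 0.08 (14 called higher and 2 lower) and 0.06 (54 higher and 27 lower). The calls were 29.8% and 4.26% of the first stretch and 17.7% and 8.85% of the second. Of all clusters above that level 14.8% were called higher and 11.5% lower in G10. Without the limit on level the G10 medians of the stretches were 0.01 and 0.02. Among the 39 genes up to HGSNAT with a mean of at least 7, the G10 median was 0.22. The medians of the other 22 chromosomes, over 13261 genes, ran from -0.11 to 0.07 in A7 and from -0.19 to 0.25 in G10.

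**Figure D4:**
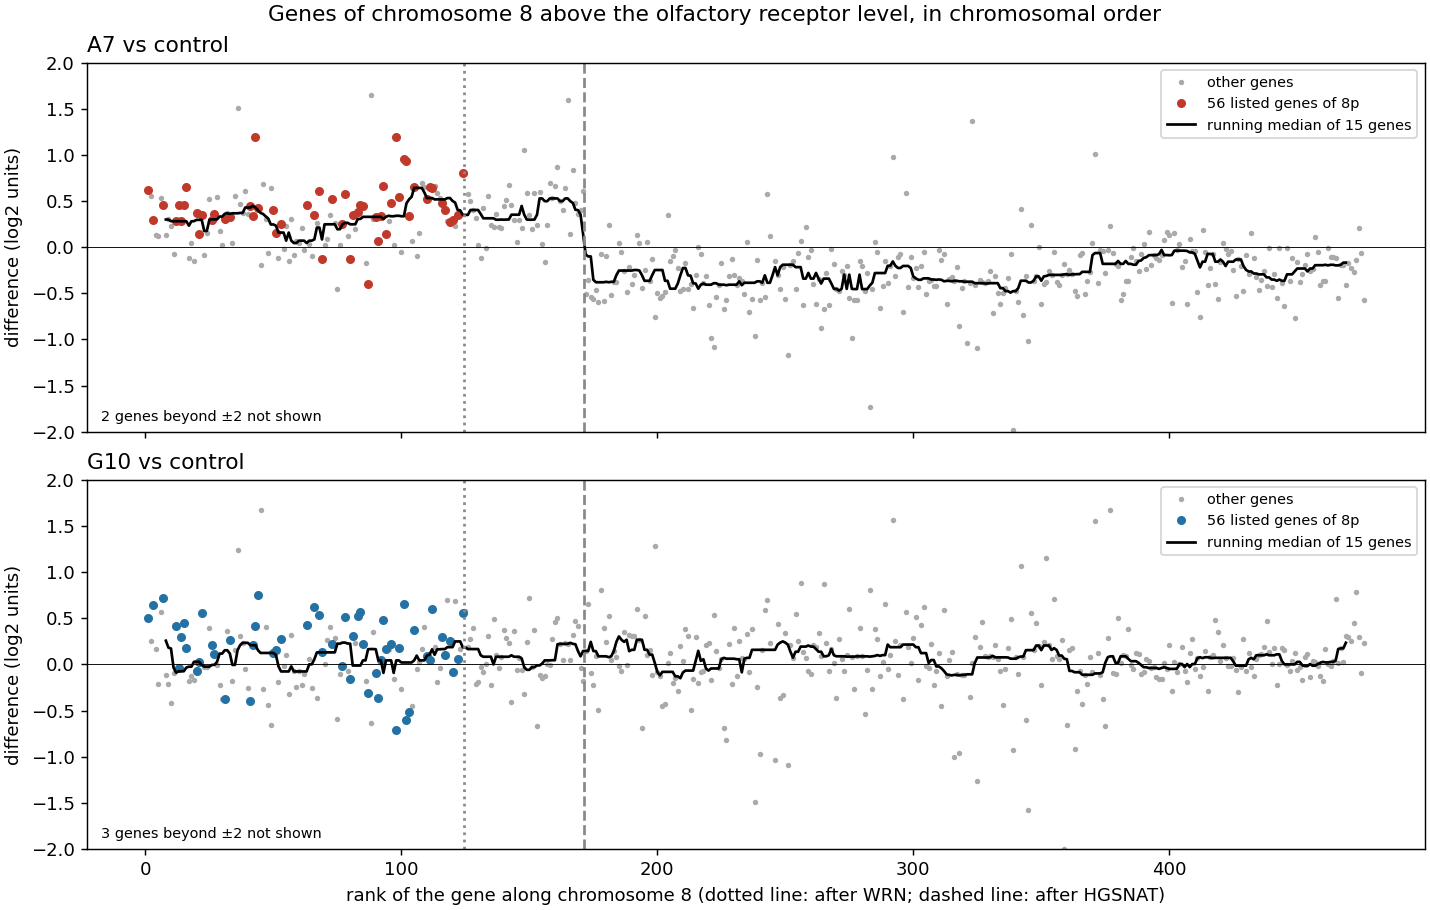
Difference from control of the 476 genes of chromosome 8 above the olfactory receptor level, in log2 units, plotted by rank along the chromosome from the tip of 8p, for A7 (top) and G10 (bottom). Coloured points are the 56 listed genes, grey points the other genes, and the black line is a running median of 15 genes. In A7 the line lies above zero up to the dashed line after HGSNAT and below zero beyond it, while in G10 it crosses zero several times.

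**Figure D5:**
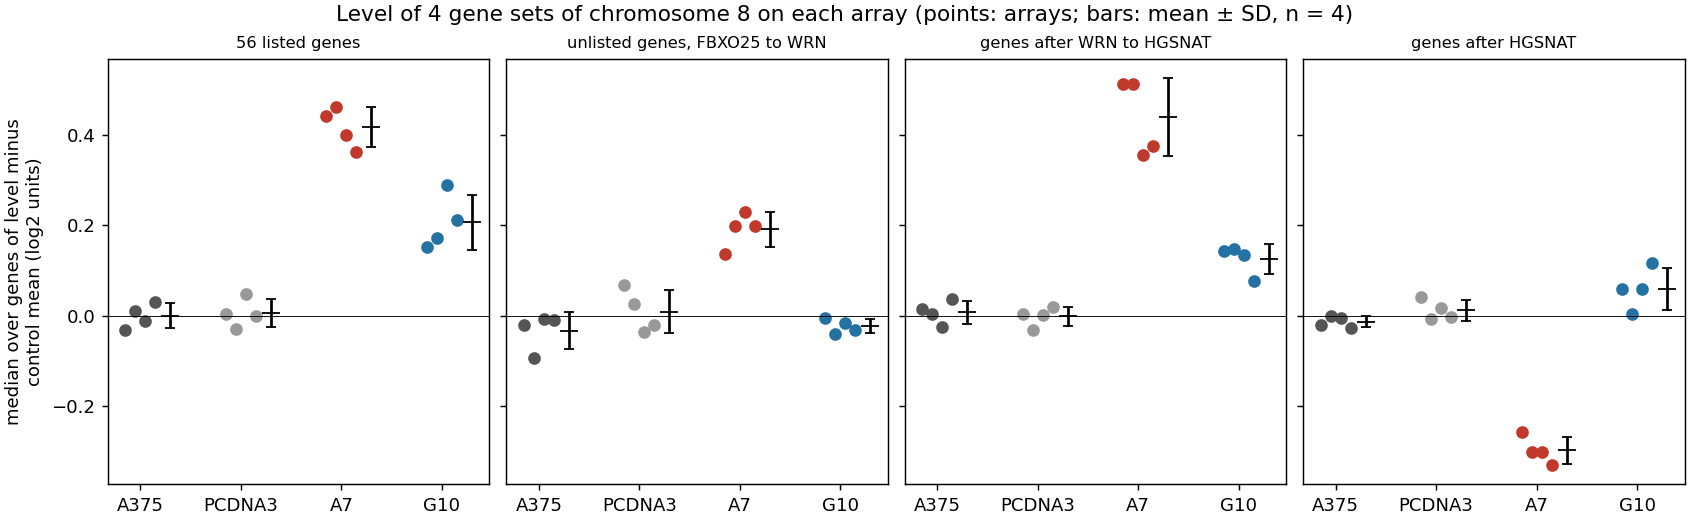
Median over the genes of a set of the level minus its control mean, in log2 units, on each array (points). Bars give the mean and SD of the 4 arrays of a group. The sets are the 56 listed genes, the unlisted genes from FBXO25 to WRN, the genes after WRN up to HGSNAT and the genes after HGSNAT. All genes shown lay above the olfactory receptor level in at least 1 group mean. The A7 arrays lie above the controls in the first 3 sets and below them in the last, with means of 0.42, 0.19, 0.44 and -0.30, whereas G10 lies above the controls for the listed genes (0.21) and the genes after WRN (0.13).

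Within the groups the members showed little common rise or fall from array to array. After each group mean was subtracted, the mean correlation over the 1540 pairs of members across the 16 arrays was 0.034, and 53.5% of the pairs were positive. For the 68 unlisted genes it was 0.006 and for all clusters above the olfactory receptor level 0.001. Such a mean can hide members that move in opposite directions, as some did between the pairs of G10 arrays. These are descriptions over arrays that share their normalization.

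The comparison that played no part in choosing the genes was PCDNA3 vs A375, with 4 arrays a side. Its median over the 56 members was -0.01, with 27 differences positive and 29 negative. In limma 0 members were called, against 0.123% of all clusters (0.045% higher and 0.0781% lower), while 12 of 56 members had an unadjusted p under 0.05, 5 higher and 7 lower, as had 4198 of all 33297 clusters. All PCDNA3 arrays lay above all A375 arrays for 5 members and below for 7, against 6.26% and 4.87% of all clusters. The lowest adjusted p belonged to POLR3D, at 0.33 (limma adjusted p 0.15, 95% interval 0.13 to 0.53). It was followed by GTF2E2, the beta subunit of transcription factor TFIIE, at -0.29 (limma adjusted p 0.198, 95% interval -0.48 to -0.10), and BNIP3L at -0.60 (SE 0.19, limma adjusted p 0.202). MSRA differed by 0.34 (limma adjusted p 0.264, 95% interval 0.08 to 0.60) and GSR by 0.10 (limma adjusted p 0.732, 95% interval -0.10 to 0.30), and EPHX2 lay below the olfactory receptor level in both lines. With all arrays but G10 replicates 3 and 4 in the fit, 2 members were called higher and 3 lower, among them POLR3D, PSD3, LOXL2 and BNIP3L. Calls over all clusters were not counted in that fit, so nothing is read from these.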

How the data were processed

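RNA of 16 samples, 4 for each of A375, PCDNA3, A7 and G10 cells, was measured on Human Gene 1.0 ST arrays (Affymetrix). The authors applied Robust Multi-array Average (RMA) for background correction and normalization and deposited a log2 intensity for each of 33297 transcript clusters. Array medians were 5.85 to 5.97. The number of arrays limits the precision, and probe intensities were not used here. RMA compresses low intensities, so differences of dim genes are understated.

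Clusters with 1 gene symbol (19460) were named; those with several (1754) or none (12083) were tested but not named. Genes were ordered by Entrez ID (18389 of 18417 matched) in the RefSeq annotation of GRCh38.p14.

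The group means of all 16 arrays were fitted with limma 3.58.1 in R 4.3.3 (12 residual and 3.57 prior degrees of freedom) after tests on simulated data, with Benjamini-Hochberg adjustment over every cluster. Differences are given with their standard errors. Where 1 side lay below the olfactory receptor level, "at least" gives the brighter mean minus the dimmer side raised to that level. Plots were made with matplotlib 3.10.9.

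The members, role groups, redox genes, marker lists and named-gene rule were chosen with earlier results of these data known. The rule named 27 members: the antioxidant genes, the 4 highest and 4 lowest differences in each clone comparison, the 3 lowest p in PCDNA3 vs A375, and the largest difference of each role group in each clone. Other members were named with their role. Alternatives were A375 or PCDNA3 cells alone as control, a further quantile normalization, median centring, filters on dim or unnamed clusters, only the arrays compared, array weights, limma-trend, robust variances, a replicate block, the mean over a gene's clusters, an adjusted p under 0.001 and leaving out each array. The removal of array pairs was chosen after seeing the data.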

Additional observations from a re-analysis of the deposited data

Results flagged for a closer look

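Single arrays stood apart from the other 3 of their group for 10 of 228 groups of 4 values tested, where chance gives about 1 in 20. In A375 these were AGPAT5 on replicate 1 (8.92, the others 9.03 to 9.05) and CHMP7 on replicate 4 (7.97, the others 8.21 to 8.25), and in PCDNA3 XKR6 on replicate 4 (5.02, the others 5.29 to 5.32) and DCTN6 on replicate 1 (8.40, the others 7.96 to 7.99). In A7 they were MFHAS1 on replicate 2 (7.28, the others 7.08 to 7.11), TUSC3 on replicate 2 (10.33, the others 10.58 to 10.62) and STC1 on replicate 4 (6.18, the others 5.96 to 5.99). In G10 they were MTMR9 on replicate 3 (8.54, the others 8.15 to 8.19), POLR3D on replicate 4 (8.60, the others 8.88 to 8.93) and TNFRSF10A on replicate 4 (5.07, the others 5.34 to 5.40).

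The clones differed from each other beyond the adjusted p for 14 members. CLN8 was higher in G10 than in A7 by 0.34. The 13 lower in G10 were EPHX2 (-1.91), ESCO2 (-1.55), MTUS1 (-0.85), PBK (-0.85), ASAH1 (-0.78), DLC1 (-0.68), INTS9 (-0.61), ERI1 (-0.49), MSRA (-0.47), PINX1 (-0.45), EXTL3 (-0.42), KCTD9 (-0.42) and GSR (-0.38). The list was drawn with these differences known. All EPHX2 values outside A7 lay below the olfactory receptor level, and ESCO2 and PBK differed between the pairs of G10 arrays by 1.39 and 0.95.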

How the results depend on the processing

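Under the 33 settings with the adjusted p limit of 0.05, the main fit included, 52 members stayed above and 3 below control in A7. In G10 30 stayed above and 6 below. In A7 8 members were called higher under all 33, and in G10 9. The members called higher in A7 (35) were 22 with PCDNA3 alone as control, 7 at an adjusted p under 0.001, 10 without A7 replicates 1 and 2, 22 without A7 replicates 3 and 4, and 18 to 39 when single arrays were left out. Those called higher in G10 (22) were 8 at 0.001 and 17 to 23 without single arrays. Those called lower in G10 (3) were 6 with array weights, 0 at 0.001, 1 without G10 replicates 1 and 2, 6 without replicates 3 and 4, and 3 to 6 without single arrays. In G10 vs A7 the 1 member called higher became 2 with median centring, 2 with only clusters above the olfactory receptor level, 3 with array weights, 0 with the mean over a gene's clusters, 0 at 0.001, 4 without G10 replicates 3 and 4, 0 without either A7 pair, and 0 to 2 without single arrays. The 13 called lower became 4 at 0.001, 6 without A7 replicates 1 and 2, and 11 to 16 without single arrays. The median of G10 vs A7 moved from -0.19 to -0.23 without A7 replicates 3 and 4, and between -0.20 and -0.15 without single arrays. In PCDNA3 vs A375 the counts of 0 became 1 lower with only the arrays compared, 1 lower with array weights, 3 lower without G10 replicates 1 and 2, and 2 higher and 3 lower without G10 replicates 3 and 4. LOXL2 in G10 vs A7 changed from 0.15 to -0.45 without G10 replicates 1 and 2. The causes of these changes were not tested, and the share of all clusters called under each setting was not counted.

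Replicate numbers did not pair the samples. Deviations of same-numbered arrays correlated with a median r of -0.003 (-0.19 to 0.30, 24 pairs), and 4 of 16 arrays correlated best with their own number. With the replicate block 2 members were called higher in G10 vs A7 in place of 1. Low signal limits EPHX2, XKR6 and TNFRSF10A, which lay near or below the olfactory receptor level.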
